A study of Rattus norvegicus with 6 samples.

Results

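DNA damage response and repair genes encode the proteins that detect broken, cross-linked, mispaired or chemically altered bases, halt the cell cycle while damage persists and restore the sequence. They were described here in NSPCs, neural stem and progenitor cells cultured from the hippocampus of adult rats, as 53 genes listed by name in 8 pathways, of which 45 could be measured among the 17245 genes tested. Each gene was represented by a probe set that carries its symbol alone, and, where it had several, by the brightest over 6 arrays. The genes Rad51ap1, Xpa and Ercc1 have probe sets that also carry the symbol of another gene, and they were not analysed here, nor were Xrcc3, Fanci, Atr, Msh6 and Ddb2. Trp53bp1 and Mre11a of the list are given under their current rat symbols, Tp53bp1 and Mre11.

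Quiescent cultures (Q-NSPCs) were neurospheres that received bone morphogenetic protein 4 (BMP4, 50 ng/ml), a signal that arrests the division of these cells, together with the mitogen FGF2 (10 ng/ml) over 4 days. Active cultures (A-NSPCs) were neurospheres that received the same dose of FGF2 over 4 days without BMP4. Each condition had 3 biological replicates, 1 array each, on Affymetrix Rat Gene 1.1 ST arrays, and the labels give no strain, sex or age beyond adult rat, and no source that would show whether the replicates came from separate animals. Values are log2 intensities made by the authors with RMA, and every difference is the Q-NSPC mean less the A-NSPC mean, where 1 stands for a doubling of intensity. Among the Q-NSPC arrays replicate 1 stood apart: in 38 of the 45 measured members it lay nearer to the A-NSPC mean than the average of the other Q-NSPC arrays did.

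Homologous recombination copies an intact sister chromatid, so it acts in cells that have replicated their DNA, and the Fanconi anaemia proteins feed cross-links met by the replication fork into it. Non-homologous end joining rejoins broken ends at any stage of the cell cycle. Base excision repair replaces single altered bases, nucleotide excision repair cuts out bulky lesions, and mismatch repair corrects copying errors. Neural stem cells that leave the cell cycle are known for lowering replication-linked genes, while end joining and excision repair remain in use in resting cells.

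In Q-NSPCs 13 of the 45 members fell and 1 rose at an adjusted p under 0.05 (limma, Benjamini-Hochberg over 17245 genes). The background in that test was 14.1% of all genes, 6.20% lower and 7.91% higher, against 28.9% of the members lower and 2.22% higher. The members that fell belonged mainly to homologous recombination (Brca2, Xrcc2, Blm and Exo1) and the Fanconi anaemia pathway (Fanca, Fancb, Fancc and Fancd2). Outside them Chek1 and Chek2 of the checkpoint, Msh3 of mismatch repair, and Neil3 and Parp1 of base excision repair fell. Rad51d, of homologous recombination, was the one that rose. The fall was moderate, with a median difference of -0.92 among the 13, a 1.89-fold higher intensity in A-NSPCs. Over all 45 members the median difference was -0.35, beside 0.01 over all genes. Arrays did not overlap between the groups in 20 members that were lower and 6 that were higher, 44.4% and 13.3% of the members, beside a background of 15.3% and 18.7% of all genes (34.0% in either direction).

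**Figure D1:**
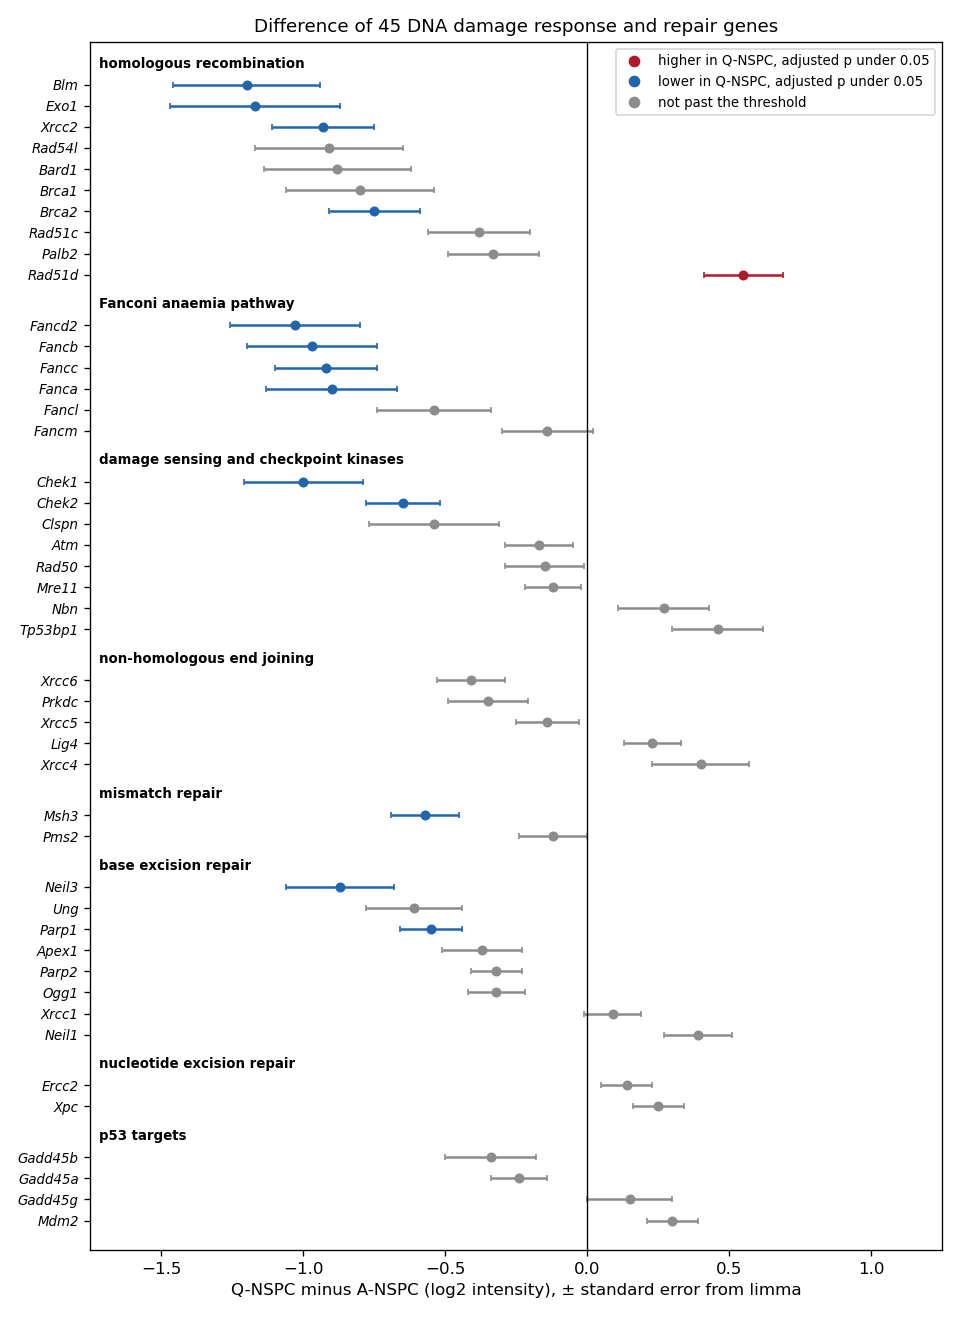
Difference in log2 intensity (Q-NSPC minus A-NSPC, x axis) of each of the 45 measured members, grouped by pathway, with points for the difference and bars for the standard error from limma. Blue and red points passed an adjusted p under 0.05, and the differences run between -1.20 (Blm) and 0.55 (Rad51d).

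The number of calls depended on each array, over all genes as among the members. Without Q-NSPC replicate 1, 23 members fell and 5 rose, beside 10.9% of all genes lower and 12.7% higher. Leaving out any other array lowered the count. Of Q-NSPCs, 2 members fell without replicate 2 (background 1.54%) and 0 without replicate 3 (0.713%). Of A-NSPCs, 0 members fell when replicate 1 was left out (0.591%), 3 when replicate 2 was (2.89%) and 1 when replicate 3 was (0.823%). The differences themselves moved less, with a median over the members of -0.47 without Q-NSPC replicate 1 and of -0.41 to -0.28 without any other array, beside -0.35 with all. In 12 of the 13 members that fell, its value lay below every A-NSPC array and above both other Q-NSPC arrays. Chek2 was the exception.

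**Figure D2:**
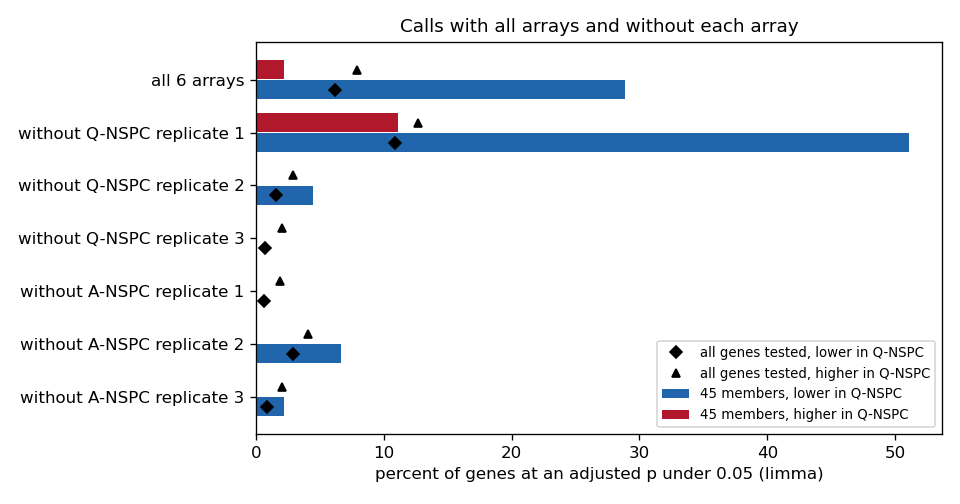
Percent of genes at an adjusted p under 0.05 (x axis) in limma with all 6 arrays and with each array left out (y axis). Bars are the 45 members, lower or higher in Q-NSPC, and symbols are all genes tested; the share of members that fell was 28.9% with all arrays, 51.1% without Q-NSPC replicate 1 and at most 6.67% without any other array.

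Among the helicases and nucleases of homologous recombination, Blm and Exo1 had the largest falls of all members. Blm encodes a helicase that untangles recombination intermediates. Its log2 intensity was 8.99, 7.85 and 8.19 in Q-NSPC replicates 1, 2 and 3, against 9.71, 9.46 and 9.46 in A-NSPC replicates 1, 2 and 3. The difference was -1.20 (standard error 0.26, limma adjusted p = 0.0226), or 2.3-fold. Exo1, an exonuclease that trims broken ends and also serves mismatch repair, had 8.96, 7.57 and 8.07 in Q-NSPCs against 9.56, 9.31 and 9.23 in A-NSPCs, with a difference of -1.17 (standard error 0.30, limma adjusted p = 0.0399). In both genes the groups did not overlap, and Q-NSPC replicate 1 was the array nearest to A-NSPCs.

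Genes that act after the ends are trimmed did not all go the same way. Brca2, a large tumour suppressor protein that binds single-stranded DNA at the break, had 8.93, 8.32 and 8.48 in Q-NSPCs against 9.25, 9.32 and 9.41 in A-NSPCs, a difference of -0.75 (standard error 0.16, limma adjusted p = 0.0212). A second, dimmer probe set of Brca2 had a difference of -1.18 (unadjusted p = 0.0363), with 7.75, 7.73 and 7.90 in Q-NSPCs against 8.35, 10.27 and 8.29 in A-NSPCs, where A-NSPC replicate 2 stood apart. Both probe sets of Brca2 were thus lower in Q-NSPCs without overlap. Xrcc2, a protein of the strand-pairing step, fell by 0.93 on the log2 scale (limma adjusted p = 0.0181), with 9.15, 8.40 and 8.53 in Q-NSPCs against 9.63, 9.54 and 9.68 in A-NSPCs. Rad51d, which encodes the protein that binds Xrcc2, went the opposite way. Its values were 10.07, 10.38 and 10.57 in Q-NSPCs against 9.82, 9.82 and 9.72 in A-NSPCs, and all 3 Q-NSPC arrays lay above all A-NSPC arrays. It rose by 0.55 (standard error 0.14, limma adjusted p = 0.0337), which is 1.47-fold, and of the 6 fits without 1 array it passed in the one without Q-NSPC replicate 1.

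The remaining measured genes of this pathway had negative differences and did not pass the test. Rad54l, a motor protein that moves along DNA and remodels chromatin, had 8.67, 7.57 and 7.88 in Q-NSPCs against 9.17, 8.70 and 8.96 in A-NSPCs (difference -0.91, limma adjusted p = 0.0554). Bard1, the partner of Brca1 in a ubiquitin ligase, had -0.88 (limma adjusted p = 0.0583), and its arrays did not overlap. Brca1, which directs end trimming, had -0.80 (limma adjusted p = 0.082), with 10.24, 9.07 and 9.35 in Q-NSPCs against 10.43, 10.42 and 10.20 in A-NSPCs. Here Q-NSPC replicate 1 overlapped A-NSPCs. Without that array Brca1, Bard1, Rad54l and Rad51c, a partner of Rad51d in one complex, passed the test. Rad51c and Palb2, which links Brca1 to Brca2, had differences of -0.38 and -0.33. The median over the 10 measured genes was -0.84.

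In the Fanconi anaemia pathway 4 of 6 measured genes fell and 0 rose, with a median difference of -0.91. Fanca, Fancb and Fancc encode subunits of the core complex, a ubiquitin ligase assembled at cross-links, and Fancd2 encodes a protein that it modifies. Fancd2 had 9.93, 8.95 and 9.20 in Q-NSPCs against 10.31, 10.50 and 10.37 in A-NSPCs, a difference of -1.03 (standard error 0.23, limma adjusted p = 0.0243). Fancc had 8.15, 7.43 and 7.88 in Q-NSPCs against 8.69, 8.89 and 8.65 in A-NSPCs, a difference of -0.92 with the smallest adjusted p of all members (0.0164 from limma). It is one of 2 members, with Chek2, that also passed without Q-NSPC replicate 2. Fancb had 7.15, 6.25 and 6.63 in Q-NSPCs against 7.44, 7.58 and 7.92 in A-NSPCs (difference -0.97, limma adjusted p = 0.0286). Fanca had 9.22, 8.30 and 8.34 in Q-NSPCs against 9.60, 9.53 and 9.45 in A-NSPCs (difference -0.90, limma adjusted p = 0.0364). None of the 4 overlapped between the groups. Fancl, the ligase subunit itself, had -0.54 (limma adjusted p = 0.115) with overlapping arrays, and passed as lower without Q-NSPC replicate 1. Fancm, which anchors the complex to DNA, had -0.14 (limma adjusted p = 0.641).

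**Figure D3:**
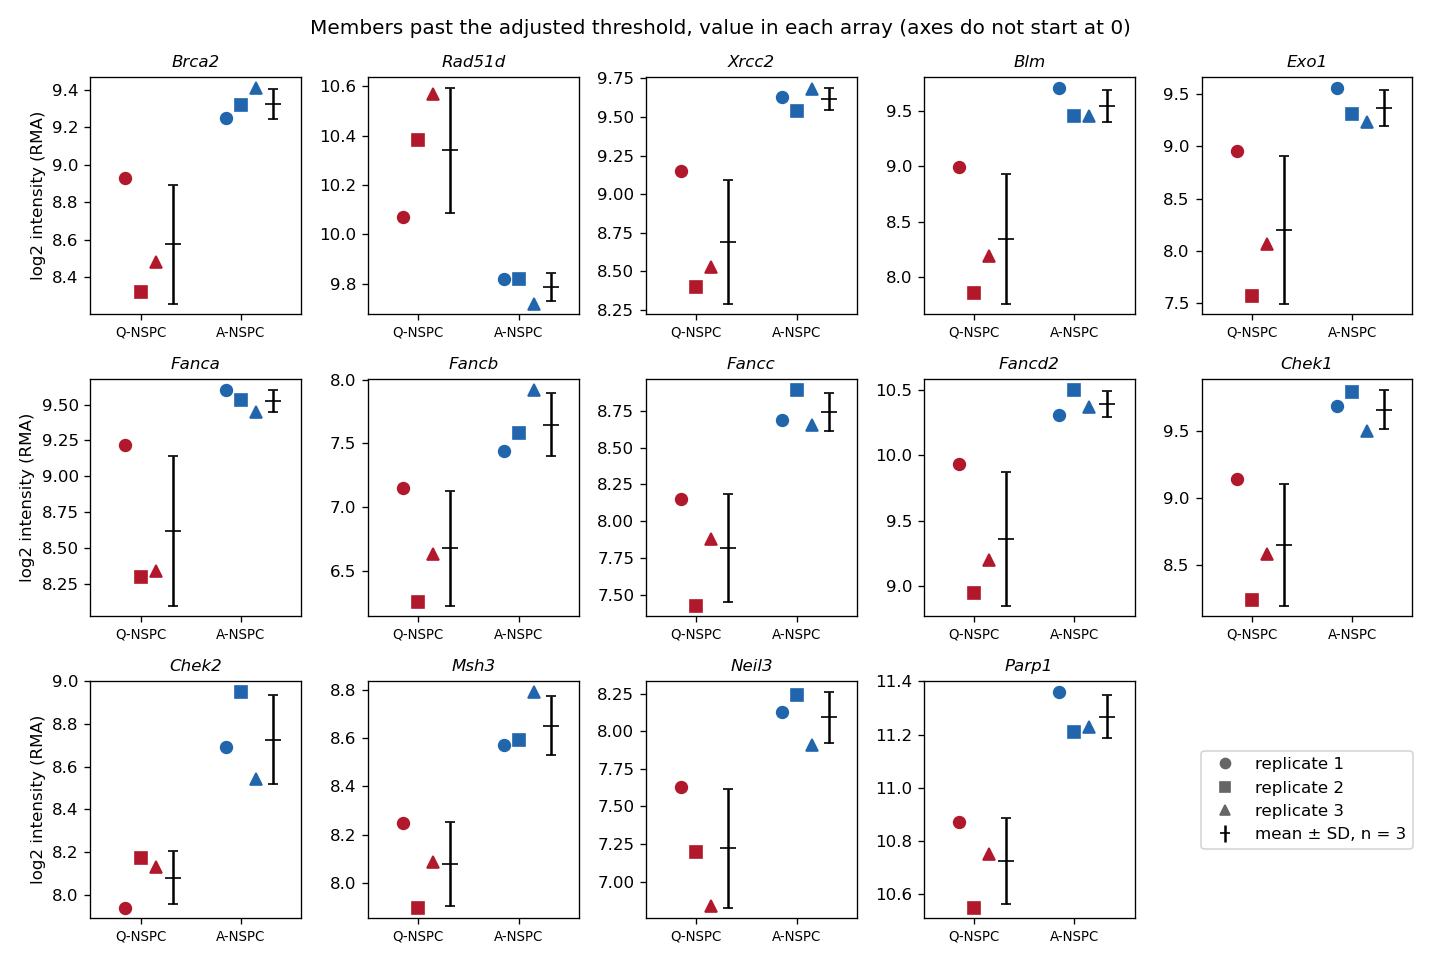
Log2 intensity (RMA, y axis) in each array of the 14 members past the adjusted threshold, with Q-NSPC in red and A-NSPC in blue, a symbol for each replicate number and black bars for the mean ± SD (n = 3 arrays). The groups are separate in each panel, and in 12 of the 13 genes that fell the circle of Q-NSPC replicate 1 lies between the other Q-NSPC arrays and A-NSPCs.

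Of the damage sensors and checkpoint kinases, both effector kinases fell and the 6 other genes measured did not pass the test. Chek1, the kinase that restrains division when replication stalls, had 9.14, 8.24 and 8.58 in Q-NSPCs against 9.69, 9.79 and 9.50 in A-NSPCs, a difference of -1.0 (standard error 0.21, limma adjusted p = 0.0214). Chek2, the kinase activated by double-strand breaks, had 7.94, 8.17 and 8.13 in Q-NSPCs against 8.69, 8.95 and 8.54 in A-NSPCs, a difference of -0.65 (standard error 0.13, limma adjusted p = 0.0184). Unlike the other 12 members that fell, Chek2 was lowest in Q-NSPC replicate 1. It passed in each fit without 1 array except those without Q-NSPC replicate 3 and without A-NSPC replicate 1. Clspn, an adaptor needed to activate Chek1, had a difference of -0.54 (limma adjusted p = 0.167), and its second probe set gave -0.65. In the brighter set of Clspn, Q-NSPC replicate 1 was within the A-NSPC range, at 8.33 against 8.46, 8.12 and 8.33. Without that array the brighter set passed as lower. In the second, dimmer set the groups did not overlap, with 7.87, 6.99 and 7.39 in Q-NSPCs against 8.10, 8.10 and 7.99 in A-NSPCs.

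The break-sensing complex of Mre11, Rad50 and Nbn had differences of -0.12, -0.15 and 0.27, each with overlapping arrays and adjusted p-values of 0.297 or more from limma. Atm, the kinase that this complex recruits, had -0.17 (limma adjusted p = 0.372). Tp53bp1, a chromatin reader that steers breaks towards end joining, had 9.83, 10.29 and 10.45 in Q-NSPCs against 9.84, 9.71 and 9.62 in A-NSPCs. Its difference was 0.46 (limma adjusted p = 0.0947), and it passed without Q-NSPC replicate 1, the array at the A-NSPC level.

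The promoters of 3 members that fell and of the 1 that rose are shown because they hold the same E2F-like letters. E2F factors drive genes of DNA synthesis when cells enter the replication phase. The letters searched on both strands were TTTCCCGC, TTTGGCGC, TTTCGCGC, TTTGCCGC and TTCCCGCC, of which the first and the last can overlap. They were sought in RefSeq windows of build GRCr8 that run 250 bases before to 50 after the start of the gene. Capitals mark the matches, all of them TTTCCCGC or TTCCCGCC or their reverse complements. They begin at positions -29, -29, 9 and -14 in Chek1, Fancc, Fancd2 and Rad51d, with the start site counted as 0. The windows are chr8:44629794-44630093 (minus strand), chr17:1686839-1687138 (plus strand), chr4:148234458-148234757 (plus strand) and chr10:68321853-68322152 (minus strand).
Chek1: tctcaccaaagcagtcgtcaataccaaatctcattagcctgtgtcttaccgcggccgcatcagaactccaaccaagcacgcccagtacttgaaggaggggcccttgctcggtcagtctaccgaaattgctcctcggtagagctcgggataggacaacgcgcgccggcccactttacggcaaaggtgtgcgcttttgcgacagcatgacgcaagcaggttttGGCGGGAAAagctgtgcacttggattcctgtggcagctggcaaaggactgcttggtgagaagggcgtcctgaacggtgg
Fancc: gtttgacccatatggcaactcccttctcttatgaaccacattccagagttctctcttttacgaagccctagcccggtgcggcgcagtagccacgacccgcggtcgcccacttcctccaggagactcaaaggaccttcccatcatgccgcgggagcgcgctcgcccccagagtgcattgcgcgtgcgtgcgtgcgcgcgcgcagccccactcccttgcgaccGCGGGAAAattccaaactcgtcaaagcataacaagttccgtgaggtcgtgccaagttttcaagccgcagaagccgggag
Fancd2: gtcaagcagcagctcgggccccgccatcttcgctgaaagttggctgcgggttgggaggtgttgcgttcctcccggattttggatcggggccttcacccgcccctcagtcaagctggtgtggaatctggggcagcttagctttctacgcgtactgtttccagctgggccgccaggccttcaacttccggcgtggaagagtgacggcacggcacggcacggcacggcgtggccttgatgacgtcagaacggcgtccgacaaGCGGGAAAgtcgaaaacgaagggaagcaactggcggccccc
Rad51d: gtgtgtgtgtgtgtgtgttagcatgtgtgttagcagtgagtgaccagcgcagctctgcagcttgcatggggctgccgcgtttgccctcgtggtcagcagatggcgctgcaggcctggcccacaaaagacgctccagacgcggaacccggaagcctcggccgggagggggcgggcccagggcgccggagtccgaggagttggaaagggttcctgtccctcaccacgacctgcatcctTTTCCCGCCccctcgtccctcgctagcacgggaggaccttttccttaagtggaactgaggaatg

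A window was matched for 39 of the 45 members, and Xrcc2, Blm, Chek2 and Neil3, which fell, had none. The E2F-like letters stood in 10 of 39 members (25.6%), in 3 of the 9 members that fell and had a window (33.3%), and in 6 of the 29 that did not pass (20.7%). Beside these, 5.34% of 14045 windows of genes tested and 3.77% of all 27457 windows held them. The share was 11.6% over the 883 windows of all genes that fell, members included, and 47.1% over 17 division markers. By pathway the letters stood in 4 of 6 windows of damage sensing and checkpoint genes, 3 of 6 Fanconi anaemia genes, 2 of 8 genes of homologous recombination and 1 of 7 of base excision repair (Ung), and in 0 of 4 of end joining. The letters of a cell cycle element, TTTGAA or TTCGAA on both strands, were in 8 of 39 members (20.5%) and in 0 of the 9 that fell. Beside these, 17.1% of windows of genes tested, 19.6% of all genes that fell and 41.2% of division markers held them. These matches are descriptions of the letters in the windows, and no binding was measured.

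End joining had no member past the test, although 4 of its 5 genes had an unadjusted p under 0.05, 2 in each direction, beside 29.5% of all genes. Xrcc5 and Xrcc6 encode the Ku proteins that clamp onto broken ends, and Prkdc encodes the kinase they recruit. Xrcc6 had 11.11, 10.83 and 10.85 in Q-NSPCs against 11.30, 11.23 and 11.49 in A-NSPCs, a difference of -0.41 without overlap (limma adjusted p = 0.0575). Prkdc and Xrcc5 had -0.35 and -0.14, with overlap. Lig4, the ligase that seals the ends, and its partner Xrcc4 were on the other side, at 0.23 (limma adjusted p = 0.165) and 0.40 (limma adjusted p = 0.15). Lig4 had 8.78, 8.93 and 9.00 in Q-NSPCs against 8.69, 8.60 and 8.72 in A-NSPCs, a small difference without overlap. Xrcc4 had 8.31, 8.81 and 8.95 in Q-NSPCs against 8.17, 8.38 and 8.31 in A-NSPCs. Without Q-NSPC replicate 1, Xrcc4 passed as higher, and Xrcc6 and Prkdc passed as lower.

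In mismatch repair Msh3, which recognises small loops of unpaired bases, fell. It had 8.25, 7.90 and 8.09 in Q-NSPCs against 8.57, 8.59 and 8.79 in A-NSPCs, a difference of -0.57 (standard error 0.12, limma adjusted p = 0.0221). Pms2, which cuts the strand to be corrected, had -0.12 (limma adjusted p = 0.589) with overlapping arrays.

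Among the glycosylases that start base excision repair, differences went both ways. Neil3, a glycosylase for oxidised bases known from dividing cells, fell by 0.87 (standard error 0.19, limma adjusted p = 0.0248), with 7.63, 7.20 and 6.84 in Q-NSPCs against 8.13, 8.24 and 7.91 in A-NSPCs. Its relative Neil1 was higher in each Q-NSPC array, at 7.91, 8.22 and 8.29 against 7.73, 7.70 and 7.82 in A-NSPCs, with a difference of 0.39 that did not pass (limma adjusted p = 0.0666) but did without Q-NSPC replicate 1. Ung, which removes uracil, lay just above the threshold (difference -0.61, limma adjusted p = 0.051), with 9.39, 8.94 and 8.81 in Q-NSPCs against 9.81, 9.42 and 9.72 in A-NSPCs. Ogg1, which removes oxidised guanine, had -0.32 (limma adjusted p = 0.0775). Neither Ung nor Ogg1 overlapped between the groups, and Ung passed as lower without Q-NSPC replicate 1.

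Later steps of base excision repair showed one fall. Parp1, the sensor of strand breaks that builds chains of ADP-ribose, had 10.87, 10.55 and 10.75 in Q-NSPCs against 11.36, 11.21 and 11.23 in A-NSPCs, a difference of -0.55 (standard error 0.11, limma adjusted p = 0.0201). Parp2, with the same activity, had 9.89, 9.80 and 9.98 in Q-NSPCs against 10.21, 10.24 and 10.20 in A-NSPCs. Its difference of -0.32 was small but free of overlap and lay just above the threshold (limma adjusted p = 0.0545). Apex1, which cuts the strand at a missing base, had -0.37 (limma adjusted p = 0.121) and passed as lower without Q-NSPC replicate 1. Xrcc1, the scaffold of the final steps, had 0.09 (limma adjusted p = 0.628).

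The nucleotide excision repair genes and the genes listed as targets of p53 had 0 calls in the limma test in either direction. At an unadjusted p under 0.05, 1 of 2 and 2 of 4 passed, beside 29.5% of all genes. Xpc, which detects distorted helices, had 9.11, 9.21 and 9.25 in Q-NSPCs against 9.00, 8.95 and 8.88 in A-NSPCs (difference 0.25, limma adjusted p = 0.119). Ercc2, a helicase that opens the helix around the lesion, had 0.14 (limma adjusted p = 0.349). Both were higher in each Q-NSPC array than in any A-NSPC array. Mdm2, the ubiquitin ligase that p53 induces and that limits it, had 9.82, 9.90 and 9.91 in Q-NSPCs against 9.62, 9.59 and 9.51 in A-NSPCs. Its difference was 0.30 (limma adjusted p = 0.0603), with SDs of 0.05 in each group, and it passed without Q-NSPC replicate 1. The stress-induced Gadd45 genes differed among themselves. Gadd45a had -0.24 (limma adjusted p = 0.158), with 7.94, 7.99 and 8.03 in Q-NSPCs against 8.24, 8.09 and 8.33 in A-NSPCs. Gadd45b and Gadd45g had -0.34 and 0.15, with overlap. Gadd45g lay near the low end of the array, at 6.27 ± 0.17 in Q-NSPCs and 6.12 ± 0.25 in A-NSPCs (SD, n = 3 each), where a change can be understated.

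A further 149 repair genes that are not members were measured for comparison, and 30 of them fell and 9 rose (limma). Those are 20.1% and 6.04%, beside 6.20% and 7.91% of all genes, and the median difference was -0.12. Without Q-NSPC replicate 1, 42 fell and 14 rose, beside 10.9% of all genes lower and 12.7% higher. Without any other array 2 to 8 fell and 0 to 4 rose. Of all genes 0.591% to 2.89% were then lower and 1.84% to 4.05% higher. In each list the genes with the smallest p-values are named. In homologous recombination 10 of 33 fell and 2 rose. Rad54b, a relative of Rad54l, and Mcm8, a helicase of the recombination pathway, had -1.11 (limma adjusted p = 0.00481) and -1.08 (0.0077), while the nuclease subunit Eme2 and the helicase Wrn had 0.42 (0.0272) and 0.99 (0.0444). Of 12 further Fanconi anaemia genes 2 fell and 0 rose. They were Usp1, which strips ubiquitin from Fancd2, at -1.12 (limma adjusted p = 0.0223), and Ube2t, which supplies it, at -0.76 (0.0319). Damage signalling had 7 of 21 lower and 0 higher, among them the phosphatase Cdc25b (-0.71) and the clamp subunit Rad1 (-0.78). Among 13 genes of base excision repair 1 fell, the glycosylase Nthl1 (-0.54), and 3 rose, among them Parp3 (0.76, limma adjusted p = 0.0123) and the glycosylase Mpg (0.39).

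Smaller counts were found elsewhere. Mismatch repair had 2 of 6 lower (Mlh3 at -0.57 and the ligase Lig1 at -0.57) and 0 higher, and end joining 1 of 9 lower, Tdp1 (-0.74), which frees trapped topoisomerase from DNA, and 0 higher. Nucleotide excision repair had 3 of 18 lower, among them Mnat1 (-0.58) and Cetn2 (-0.37), and 2 higher, Uvssa (0.48) and Cul4a (0.49). Of 17 genes of lesion bypass and direct reversal, the ubiquitin ligases Hltf (-0.66) and Rad18 (-0.80) fell and 0 rose. Of 20 further targets and regulators of p53, Phlda3 (-0.72) and Plk3 (-0.69) fell, and Tp53inp1 (0.71) and Rrm2b (0.82), a subunit of ribonucleotide reductase for resting cells, rose.

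Genes of the dividing cell were set beside the members. Of 23 measured division markers 16 fell and 0 rose, with a median difference of -0.91. Among the members the median was -0.84 for homologous recombination, -0.91 for the Fanconi anaemia genes and -0.35 over all 45. The genes of these 2 pathways that are not members had medians of -0.08 over 33 recombination genes and -0.07 over 12 Fanconi anaemia genes. These recombination genes were divided, with differences from -1.12 to 0.99, and 10 (30.3%) fell and 2 (6.06%) rose. Of these Fanconi anaemia genes 2 (16.7%) fell and 0 rose. The background was 6.20% of all genes lower and 7.91% higher. Without Q-NSPC replicate 1 all 23 markers fell, and without any other array 0 to 2 did. Mcm3, of the replicative helicase, had 9.31, 8.73 and 8.72 in Q-NSPCs against 9.95, 9.92 and 9.92 in A-NSPCs (difference -1.01, limma adjusted p = 0.00952). Mki67, present in cycling cells only, had 12.02, 10.83 and 11.15 in Q-NSPCs against 12.21, 12.28 and 12.29 in A-NSPCs (difference -0.92, limma adjusted p = 0.0529). Top2a, which untangles chromosomes in mitosis, had -1.10 (limma adjusted p = 0.0487), and Pcna, the clamp of the replication fork, had -0.59 (0.0674). Among the division markers and the members of both pathways, Q-NSPC replicate 1 lay nearest to A-NSPCs. Its median distance from the A-NSPC mean was -0.27 over the division markers, -0.24 over homologous recombination and -0.38 over the Fanconi anaemia genes. In Q-NSPC replicates 2 and 3 the medians were -1.21 and -1.18 for the markers, -1.25 and -1.02 for recombination and -1.26 and -0.94 for the Fanconi anaemia genes. The part that the number of dividing cells had in the members' differences was not tested, and in bulk RNA fewer cells that express a gene and less of its RNA per cell cannot be told apart.

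**Figure D4:**
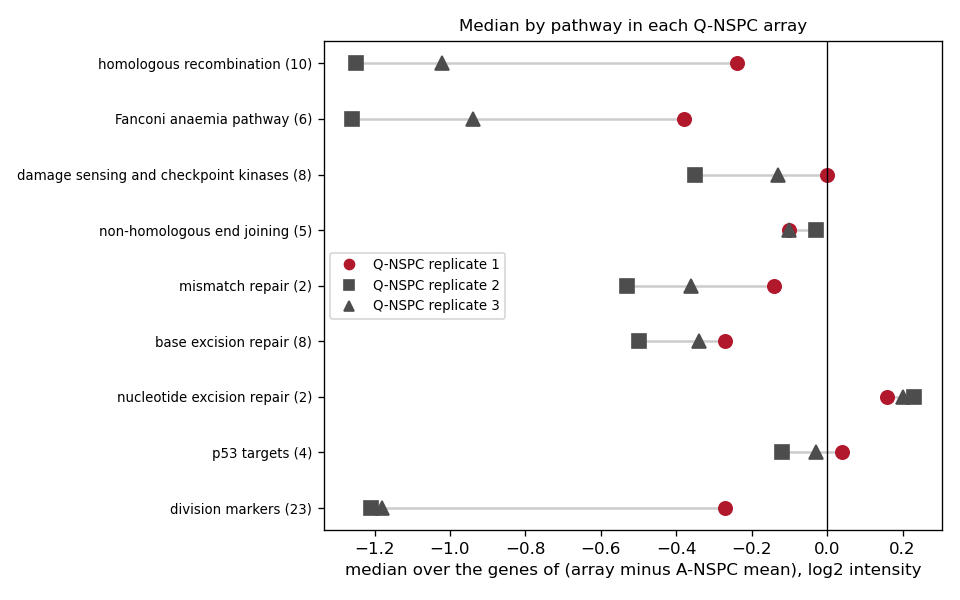
Median over the measured genes of the distance from the A-NSPC mean (log2 intensity, x axis) in each Q-NSPC array, for the 8 repair pathways and for 23 division markers (y axis, number of genes in brackets). Q-NSPC replicate 1 (red) lies at -0.24, -0.38 and -0.27 for recombination, Fanconi anaemia and division markers, nearer to 0 than the other Q-NSPC arrays.

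Markers of other cell types were read from the same arrays. Of 11 neuronal markers 7 rose and 2 fell, and the mean level of the list was 10.03 to 10.34 in Q-NSPC arrays, against 9.39 to 9.59 in A-NSPC arrays. Of 9 oligodendrocyte lineage markers 2 fell, Olig2 and Pdgfra, with a mean level of 9.81, 8.73 and 8.92 in Q-NSPC replicates 1, 2 and 3 against 9.88 to 9.98 in A-NSPCs. Replicate 1 was thus nearest to A-NSPCs in this list too. Astrocyte markers had 2 of 8 higher, Gfap and Fgfr3, at 9.22 to 9.30 in Q-NSPCs against 8.83 to 9.00 in A-NSPCs. The lists of microglia (10 genes) and endothelium (6 genes) had 0 calls in limma, 1 and 0 genes at an unadjusted p under 0.05, and means of 6.44 to 6.61 in Q-NSPCs against 6.38 to 6.65 in A-NSPCs. Of 11 markers of neural stem and progenitor cells, Pax6 and Msi1 rose and 0 fell, with a median difference of 0.00 and a mean level of 9.88 to 10.26 in Q-NSPCs against 10.07 to 10.20 in A-NSPCs. Of those that did not pass, Sox2 had 0.24, Nes, which encodes nestin, -0.57 and Vim -0.14, each without overlap. Hes1 (-1.06) and Fabp7 (-0.65) had more negative differences, with overlap. In this list 5 differences were above 0 and 6 below. The part of these cell types in the members' differences was not tested.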

How the data were processed

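RNA of 6 NSPC cultures, 3 Q-NSPC and 3 A-NSPC, was hybridised by the authors to Affymetrix Rat Gene 1.1 ST arrays. The deposited log2 values were made by the authors with RMA (background correction, quantile normalization, summary per probe set), for which the submitters' processing notes also name Affymetrix Expression Console and Partek 6.10. The array medians were 7.53 to 7.57. RMA compresses the differences of dim genes and gives no detection call. Of 29214 probe sets, 18644 carry 1 symbol, 962 several and 9608 none.

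Differences were fitted here with limma 3.58.1 in R 4.3.3 (lmFit, a mean per group, eBayes, two-sided, Benjamini-Hochberg over 17245 genes). The test was checked on simulated arrays with independent noise. No simulated array stood apart as Q-NSPC replicate 1 does here, so the check does not cover that case. The number of arrays limits the precision. The p-values set each difference against the spread between these 3 cultures per group, which eBayes moderates with the spread of all genes. Members may all be named, and values per array are given for members past the threshold and for some of the others. In lists of other repair genes, the 2 smallest p-values past the threshold in each direction are named. The members and lists were chosen with earlier results of these data known. Alternatives were the mean of probe sets, a filter on dim genes, other scalings, variance models and weights, the replicate block, an unmoderated t-test and leaving out each array. Promoters are from RefSeq.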

Additional observations from a re-analysis of the deposited data

How the results depend on the processing

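The 13 members that fell also passed with the mean of probe sets, without dim genes, with repeated quantile normalization, with arrays centred on their median, with trend and robust settings, with array weights and with the replicate block. Counts depended on the weight given to Q-NSPC replicate 1. With array weights, 4028 genes passed in all, 23 members fell and 5 rose, and 16 other repair genes rose. Over all genes 10.8% were lower and 12.6% higher with these weights. The study's methods name a t-test among others, but the paper does not state which test gave its array lists. An unmoderated t-test per gene left 0 genes after adjustment, hence 0 members, other repair genes or division markers in either direction. At an unadjusted p under 0.05 it called 4241 genes, with 18 members lower and 6 higher. It also called 39 other repair genes lower and 15 higher, and 12 division markers lower. Leaving out 1 array gave 419 to 4079 genes in all, against 2433 with all arrays. It gave 0 to 23 members lower and 0 to 5 higher, 0 to 14 other repair genes higher and 2 to 42 lower, and 0 to 23 division markers lower. The median difference of end joining ran between -0.19 and -0.06 without 1 array, and that of p53 targets between -0.11 and 0.04 (without dim genes, which removes Gadd45g, -0.24). The replicate numbers are not known to pair the cultures. Deviations from the group means correlated across genes at -0.055, 0.00924 and -0.0342 in arrays of the same number, and not every array correlated best with its own number. With the number as a replicate block 16 members fell and 0 rose, since Rad51d did not pass, and 5 other repair genes rose. Over all genes 5.51% were lower and 6.34% higher with this block. No other call among the members was lost with it, and Bard1, Rad54l and Ung were gained.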
